A study of Homo sapiens with 13 samples.

Results

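Line M5 is 1 of 3 bone-metastatic lines derived from a human non-small cell lung carcinoma, and its transcripts were compared with those of the control cells. The comparison took the 3 arrays titled as line M5 and the 4 arrays titled as control cell lines, 7 of the 13 Affymetrix oligonucleotide arrays in the series, with the arrays of lines M1 and M4 (3 each) entering the estimate of the spread. Of the controls, 2 arrays held cells without a luciferase reporter and 2 held cells with it. According to the labels, control cells were injected into the hearts of mice, cells that had colonised bone were isolated, and their metastatic activity was assessed by injecting them again. RNA from 3 groups of cells was pooled on each array. Whether M5 grew from 1 clone or carries the reporter is not given in the sources used here. Replicate 1 of M5 is given beside replicates 2 and 3 for most named genes and for some of the gene lists, since these arrays differed.

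Carcinoma cells that reach bone marrow have to attach, survive and grow in a matrix that osteoblasts build and osteoclasts resorb. Tumour cells are known to act on both cell types through secreted factors, among them Wnt antagonists, interleukins and chemokines, proteases and Notch ligands. Adhesion molecules, matrix proteins and the epithelial or mesenchymal state of the tumour cells are further parts of that process, and gene lists for each were counted below.

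The arrays carried both epithelial and mesenchymal markers. The keratins KRT8, KRT18 and KRT19 and the mesenchymal filament vimentin (VIM) lay above the upper quartile of the array on all 7 arrays. The epithelial adhesion molecules EPCAM and CDH1 lay below the lower quartile on all 7, as did the club cell marker SCGB1A1, the leukocyte markers PTPRC and CD3E and the endothelial marker VWF. NKX2-1, the lung lineage factor, lay below the median of the array on all 7. Not all other markers looked up were low. The collagen COL3A1 lay above the upper quartile on all 7 arrays, and the collagen COL1A1 and the keratin KRT7 above the median on all 7. The surfactant protein SFTPB lay above the median on 3 arrays, and the endothelial marker PECAM1 below the lower quartile on 6.

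The signals of 62 Affymetrix control probe sets put the arrays into 4 sets that the labels do not record. Among the 62, beside those for added transcripts and hybridisation, were the GAPDH and ACTB probe sets that gave the ratios below. The sets are therefore not independent of RNA integrity or of the cells' own transcripts. M5 replicate 1 fell into a set with both control arrays numbered 2 and with arrays of M1 and M4. M5 replicates 2 and 3 made up a set of their own, so a fit with these sets as a block compares M5 with control through replicate 1 alone. Their genes also spanned a narrower range of signals, with SDs over genes of 2.14 and 2.18 log2 units against 2.23 to 2.29 on all the other arrays. The ratio of 3' to 5' signal of GAPDH, a measure of RNA integrity, was 0.17 and 0.14 (log2) on these arrays, 0.03 on M5 replicate 1 and 0.05 to 0.16 on the control arrays. The same ratio of ACTB was 0.15 and 0.11 on M5 replicates 2 and 3, -0.03 on replicate 1 and -0.19 to -0.04 on the control arrays. It was also 0.30 on M1 replicate 3 and 0.11 and 0.19 on M4 replicates 2 and 3. On the other arrays of M1 and M4 it was -0.16 to -0.11. The part that the signal range or RNA integrity has in the differences below was not tested. The array sets enter as a block where stated, and the set of replicates 2 and 3 cannot be told apart from those 2 arrays.

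Against control, 63 of 11963 genes rose in M5 (0.527%) and 221 fell (1.85%), at an adjusted p under 0.05 (limma, Benjamini-Hochberg adjustment across all genes), and 1037 rose (8.67%) and 1119 fell (9.35%) at an unadjusted p under 0.05. The falls were led by FBN2, a fibrillin of extracellular microfibrils (16.4-fold), and the rises by SERPIND1, the thrombin inhibitor heparin cofactor II (10.9-fold). The median fold of the called genes was 1.57 among rises and 1.63 among falls. Of the falls, 141 lay on chromosome 3, against 1 of the rises. All 3 M5 arrays lay above all 4 control arrays for 61 of the rises and below them for 218 of the falls, and over all genes 703 (5.88%) lay above and 754 (6.3%) below in this way. The labels call the arrays biological replicates, and a p-value here measures the spread among these arrays alone. Leaving out M5 replicate 1 raised the number of called genes from 284 to 3062, leaving out M5 replicate 2 or 3 lowered it to 54 or 55, and leaving out 1 control array gave 76 to 84.

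With the array sets as a block, which rests on replicate 1, 115 genes rose (0.961%) and 122 fell (1.02%). Of the genes called without the block, 20 rises and 68 falls were called in the same direction with it. Of the 24 rises and falls described next, 21 were called with the block too and 14 in all 7 fits that left out 1 array. Among all 284 called genes, 42 were called in all 7 of those fits. The 24 were ranked partly by the difference of replicate 1 from the control arrays of its set, which the block fit also uses. Their 21 calls with the block are therefore no independent evidence. Against the controls with luciferase alone 14 of the 24 were called and against those without it 16, and 16 of the 18 outside chromosome 3 were called when the genes of that chromosome were left out of the test. Among the 284 called genes, 67 had a second probe set of more than median signal. It differed in the same direction in 64 of them (95.5%), against 73.5% over all genes with such a pair, and by at least 50% of the size in 51 (76.1%), against 59.7%. Outside chromosome 3 these counts were 22 (91.7%) and 14 (58.3%) of 24.

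Signals below are log2 values, given for the control arrays in the order without luciferase 1 and 2, then with luciferase 1 and 2, and for M5 in the order of its replicates. Differences are M5 minus control on the same scale with limma's standard error. These 24 genes were chosen among called genes whose M5 and control arrays do not overlap, so that lack of overlap is no result. SERPIND1 was at 4.28, 4.27, 4.05 and 4.09 in control and at 7.24, 7.69 and 7.92 in M5, a rise of 3.45 ± 0.43 (adjusted p = 0.00244). All 4 control signals lay below the lower quartile of their arrays, so the fold from so dim a signal is not exact. Replicate 1 taken alone was 3.07 above control.

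**Figure D1:**
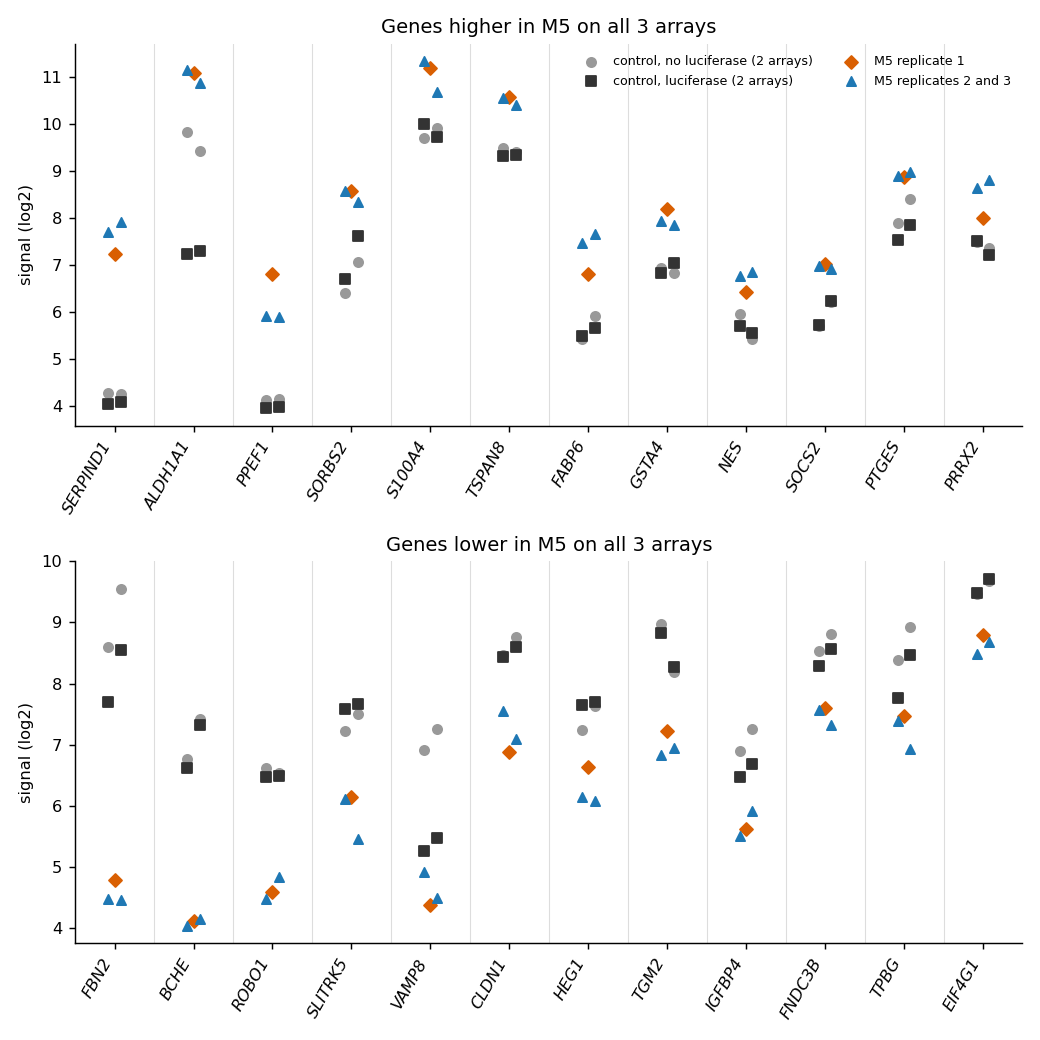
Signal (log2) on each of the 7 arrays for the 12 named genes that rose in M5 (top) and the 12 that fell (bottom), 1 point per array. The genes were chosen so that the M5 arrays lie beyond all 4 control arrays, and for ALDH1A1 and VAMP8 the controls with and without luciferase lie apart.

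Several other rises belonged to retinoid, lipid and detoxifying metabolism. ALDH1A1, an aldehyde dehydrogenase that makes retinoic acid, was at 9.82, 9.42, 7.23 and 7.29 in control and at 11.07, 11.15 and 10.87 in M5 (2.59 ± 0.40, adjusted p = 0.00723, 6.02-fold). The kinds of control differed here: the rise was 3.77 against the controls with luciferase and 1.41, no longer called (adjusted p = 0.225), against those without it. FABP6, the ileal bile acid-binding protein, was at 5.44, 5.91, 5.49 and 5.66 in control and at 6.80, 7.47 and 7.65 in M5 (1.68 ± 0.20, adjusted p = 0.00176). It was higher in M5 replicates 2 and 3 than in replicate 1 by 0.76 (adjusted p = 0.0496). GSTA4, a glutathione transferase that clears lipid aldehydes, was at 6.93, 6.84, 6.84 and 7.04 in control and at 8.18, 7.93 and 7.85 in M5 (1.08 ± 0.14, adjusted p = 0.00291). PTGES, which makes prostaglandin E, was at 7.90, 8.40, 7.54 and 7.86 in control and at 8.87, 8.89 and 8.96 in M5 (0.98 ± 0.23, adjusted p = 0.0406). One PTGES control array reached 8.40, and PTGES was called with 1 array left out only when that array was M5 replicate 1. It was not called without the genes of chromosome 3 either (adjusted p = 0.083), and its second probe set, with a mean signal of 7.91, differed by 0.62.

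A further group of rises encoded proteins of the cytoskeleton, of cell movement and of signalling. SORBS2, an adaptor of actin stress fibres, was at 6.41, 7.06, 6.70 and 7.61 in control and at 8.57, 8.58 and 8.34 in M5 (1.55 ± 0.23, adjusted p = 0.00723). Against the controls with luciferase alone it was at 1.34 and not called (adjusted p = 0.0524). Its second probe set, with a mean signal of 3.99, differed by 0.28. S100A4, a calcium-binding protein of motile cells, was at 9.70, 9.90, 9.98 and 9.72 in control and at 11.18, 11.32 and 10.68 in M5 (1.24 ± 0.29, adjusted p = 0.0476). TSPAN8, a tetraspanin of the cell surface, was at 9.49, 9.40, 9.31 and 9.34 in control and at 10.56, 10.54 and 10.41 in M5 (1.12 ± 0.20, adjusted p = 0.0145). With 1 array left out both calls held only without M5 replicate 1, the others giving adjusted p of 0.0931 to 0.207 for S100A4 and 0.0506 to 0.064 for TSPAN8. S100A4 was not called without the genes of chromosome 3 (adjusted p = 0.0908), and neither gene was called against 1 kind of control alone, without and with luciferase in turn (0.141 and 0.173 for S100A4, 0.0722 and 0.0524 for TSPAN8). NES, the intermediate filament nestin, was at 5.97, 5.43, 5.71 and 5.56 in control and at 6.42, 6.76 and 6.86 in M5 (1.01 ± 0.16, adjusted p = 0.00941). With the array sets as a block NES was at 0.80 and not called (adjusted p = 0.121), and the call was also lost without M5 replicate 2 (adjusted p = 0.0523) or 3 (0.0578). PRRX2, a homeobox factor of mesenchyme, was at 7.48, 7.36, 7.50 and 7.22 in control and at 8.003, 8.63 and 8.81 in M5 (1.09 ± 0.16, adjusted p = 0.00723). SOCS2, a suppressor of cytokine signalling, was at 5.70, 6.21, 5.73 and 6.24 in control and at 7.01, 6.98 and 6.92 in M5 (1.00 ± 0.16, adjusted p = 0.00939). PRRX2 was lower in replicate 1 than in replicates 2 and 3 by 0.72 (adjusted p = 0.0139), whereas the 3 SOCS2 values lay close together (SD 0.05), and a second SOCS2 probe set, with a mean signal of 5.07, differed by 0.53. PPEF1, a protein phosphatase with calcium-binding EF hands, was at 4.13, 4.16, 3.96 and 3.99 in control, below the lower quartile of each array, and at 6.80, 5.92 and 5.89 in M5 (2.15 ± 0.20, adjusted p = 0.000401). Here replicate 1 was the highest array, by 0.89 over replicates 2 and 3 (adjusted p = 0.0149).

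Among the falls were matrix and surface proteins. FBN2 was at 8.59, 9.55, 7.69 and 8.55 in control and at 4.78, 4.46 and 4.45 in M5, a difference of -4.03 ± 0.41 (adjusted p = 0.000597). On M5 replicates 2 and 3 this signal was in the range under the array's lower quartile, so the size of the fall is not exact, and a second FBN2 probe set with a mean signal of 3.64 differed by -0.01. The mean was 6.93 in M1 and 8.74 in M4. TGM2, a transglutaminase that crosslinks matrix proteins, was at 8.98, 8.19, 8.83 and 8.27 in control and at 7.22, 6.82 and 6.94 in M5 (-1.57 ± 0.28, adjusted p = 0.0148). This call was lost with the block (-1.06, adjusted p = 0.158) and without M5 replicate 2 or 3 or the control array numbered 1 of either kind (adjusted p = 0.060 to 0.0732). Of its 3 other probe sets, those with mean signals of 6.79 and 5.89 differed by -0.85 and -0.79 and one of 5.04 differed by 0.33. TPBG, the trophoblast glycoprotein, was at 8.39, 8.92, 7.77 and 8.47 in control and at 7.46, 7.38 and 6.93 in M5 (-1.13 ± 0.18, adjusted p = 0.0103; 0.0578 without M5 replicate 3). TPBG differed by -1.40 against the controls without luciferase and by -0.86, not called (adjusted p = 0.114), against those with it. IGFBP4, a binding protein of insulin-like growth factors, was at 6.90, 7.25, 6.47 and 6.68 in control and at 5.62, 5.50 and 5.91 in M5 (-1.15 ± 0.20, adjusted p = 0.0124). With the block the IGFBP4 call was lost (adjusted p = 0.0755), as it was without M5 replicate 2 (0.064) or the control array numbered 2 of either kind (0.0521 and 0.0568). It differed by -1.40 against the controls without luciferase and by -0.90, not called (adjusted p = 0.121), against those with it. TGM2 was called against neither kind alone (0.0617 and 0.0629).

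SLITRK5, a transmembrane protein of synapses, was at 7.23, 7.51, 7.58 and 7.66 in control and at 6.14, 6.10 and 5.45 in M5 (-1.60 ± 0.15, adjusted p = 0.000401), and a second probe set with a mean signal of 3.44 differed by -0.34. VAMP8, a SNARE protein of endosomes and secretory granules, was at 6.91, 7.26, 5.26 and 5.47 in control and at 4.37, 4.92 and 4.48 in M5 (-1.63 ± 0.19, adjusted p = 0.00151). VAMP8 lay below the array's lower quartile on M5 replicates 1 and 3, so the size of its fall is not exact. The VAMP8 controls fell apart by kind. Its difference was -2.50 against the controls without luciferase and -0.77, not called (adjusted p = 0.175), against those with it.

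The remaining named falls lie on chromosome 3. BCHE, butyrylcholinesterase, which hydrolyses choline esters, was at 6.77, 7.42, 6.62 and 7.32 in control and at 4.12, 4.03 and 4.14 in M5 (-2.93 ± 0.27, adjusted p = 0.000401). ROBO1, a receptor of the guidance cue Slit, was at 6.61, 6.54, 6.48 and 6.49 in control and at 4.59, 4.47 and 4.83 in M5 (-1.90 ± 0.17, adjusted p = 0.000401). These 2 genes fell by more than any other called gene of the chromosome, with all 3 M5 arrays of BCHE below the lower quartile, and neither differed between M5 replicates (adjusted p = 0.968 and 0.897). CLDN1, a protein of tight junctions, was at 8.46, 8.77, 8.44 and 8.60 in control and at 6.87, 7.54 and 7.09 in M5 (-1.40 ± 0.21, adjusted p = 0.00723). HEG1, a mucin-like membrane protein, was at 7.24, 7.63, 7.65 and 7.70 in control and at 6.64, 6.14 and 6.08 in M5 (-1.27 ± 0.21, adjusted p = 0.0103), and lost its call without M5 replicate 2 (0.056) or 3 (0.0578) and against the controls without luciferase (0.0638). Its second probe set, with a mean signal of 6.62, differed by -0.41 only. FNDC3B, a membrane protein with fibronectin type III domains, was at 8.54, 8.81, 8.28 and 8.57 in control and at 7.61, 7.57 and 7.33 in M5 (-1.05 ± 0.20, adjusted p = 0.0186). EIF4G1, the scaffold of the translation initiation complex, was at 9.47, 9.68, 9.48 and 9.72 in control and at 8.80, 8.48 and 8.69 in M5 (-0.93 ± 0.18, adjusted p = 0.0177). For both FNDC3B and EIF4G1 the call held with 1 array left out only without M5 replicate 1, and neither was called against 1 kind of control alone (0.0534 and 0.117 for FNDC3B, 0.0743 and 0.0687 for EIF4G1). A second EIF4G1 probe set, with a mean signal of 7.24, differed by -1.72.

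Upstream sequences of these genes were looked up in RefSeq's promoter table (build GRCh38.p14), which held 22 of the 24. The E-box CACCTG, the letters bound by repressors of the epithelial state, and the AP-1 letters TGANTCA were searched on both strands in the 250 bases before each gene's start. CACCTG was found in 1 of 11 rises (S100A4) and 0 of 11 falls, against 16.0% of the 9563 measured genes with a window. TGANTCA was found in 0 of 11 rises and 1 of 11 falls (BCHE), against 4.67% of those genes. Over all 27303 promoters, measured or not, the shares were 17.5% and 6.60%. A match is a description of the letters, not a binding site. The sequences of the largest rise, the largest fall and both matches are shown 5' to 3' with the match in capitals. SERPIND1 lies on the plus strand, with its window at chr22:20773863-20774112. FBN2 lies on the minus strand with its window at chr5:128538246-128538495, S100A4 on the minus strand at chr1:153545807-153546056 and BCHE on the minus strand at chr3:165837424-165837673. The S100A4 match starts 164 bases and the BCHE match 116 bases before the gene's start.
SERPIND1: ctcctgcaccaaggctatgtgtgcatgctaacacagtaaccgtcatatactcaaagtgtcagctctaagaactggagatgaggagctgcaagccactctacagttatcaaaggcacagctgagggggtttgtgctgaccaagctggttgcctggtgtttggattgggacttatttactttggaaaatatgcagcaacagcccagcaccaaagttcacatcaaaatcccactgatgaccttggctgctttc
FBN2: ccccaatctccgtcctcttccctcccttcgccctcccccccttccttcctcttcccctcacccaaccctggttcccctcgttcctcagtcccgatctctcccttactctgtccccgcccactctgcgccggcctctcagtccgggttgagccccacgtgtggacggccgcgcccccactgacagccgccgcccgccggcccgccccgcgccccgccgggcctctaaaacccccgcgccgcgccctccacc
S100A4: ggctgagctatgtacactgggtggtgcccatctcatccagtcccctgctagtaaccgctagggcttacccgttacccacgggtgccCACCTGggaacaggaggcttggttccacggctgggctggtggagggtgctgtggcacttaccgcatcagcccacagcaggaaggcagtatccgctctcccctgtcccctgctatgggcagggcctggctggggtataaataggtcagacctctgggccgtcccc
BCHE: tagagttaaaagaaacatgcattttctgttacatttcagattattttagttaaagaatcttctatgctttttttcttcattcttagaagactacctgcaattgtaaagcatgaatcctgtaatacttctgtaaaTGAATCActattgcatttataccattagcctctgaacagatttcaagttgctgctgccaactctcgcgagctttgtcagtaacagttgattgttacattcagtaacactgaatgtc

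Genes of chromosome 3 were lower in M5 as a group. Over the 335 of its 655 genes with a mean signal above the median of all genes, the median difference from the mean of the 4 controls was -0.36 on M5 replicate 1, -0.68 on replicate 2 and -0.58 on replicate 3. Over all such genes of the genome the medians were 0.02, -0.12 and -0.04, so all 3 arrays showed the shift and replicate 1 showed less of it. On the other chromosomes the median for M5 ran from -0.16 (chromosome 4) to 0.06 (chromosome 19). The means of M1 and M4 over the chromosome 3 genes were at -0.03 and 0.01. This lowering was known from earlier results of these data when the comparison was set up, so it is described here with no test.

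**Figure D2:**
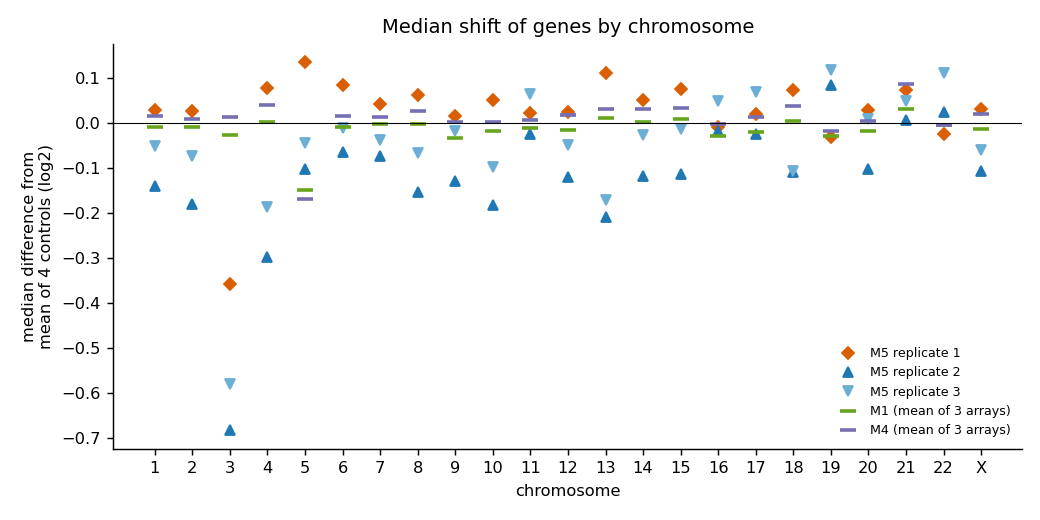
Median difference (log2) from the mean of the 4 controls over genes of more than median signal, by chromosome, for each M5 array and for the means of the 3 M1 and 3 M4 arrays. Chromosome 3 lies at -0.36, -0.68 and -0.58 on the M5 arrays, and the M1 and M4 medians lie at -0.03 and 0.01 there.

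The called falls of chromosome 3 covered both arms, with 60 of 313 genes on the short arm and 81 of 342 on the long arm, together 21.5% of its genes against 0.71% of the genes elsewhere. Of the 335 brighter genes, 285 (85.1%) were below the control mean on each M5 array, against 18.7% elsewhere. For 232 of them (69.3%) all M5 arrays lay below all control arrays, against 6.29% elsewhere, and for 0 of them did all lie above. With the array sets as a block the median was -0.38 and 71 genes of the chromosome were called down. Differences that share no array were also both negative, at -0.38 for replicate 1 against the controls numbered 2 and at -0.60 for replicates 2 and 3 against the controls numbered 1.

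Along the chromosome, medians of 31 neighbouring genes were below 0 in all 305 windows of each M5 array. They ran from -0.60 to -0.25 on replicate 1, from -1.09 to -0.24 on replicate 2 and from -1.08 to -0.25 on replicate 3. The lowest windows lay near each other on the long arm, from BCHE to ST6GAL1 on replicate 1, from PFN2 to ACTL6A on replicate 2 and from SSR3 to AP2M1 on replicate 3. The highest window of replicates 2 and 3 lay on the short arm, from QRICH1 to TWF2 and from NDUFAF3 to DUSP7, while that of replicate 1 ran from RPP14 to CBLB. Windows of M1 ran from -0.15 to 0.02 and those of M4 from -0.12 to 0.06.

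**Figure D3:**
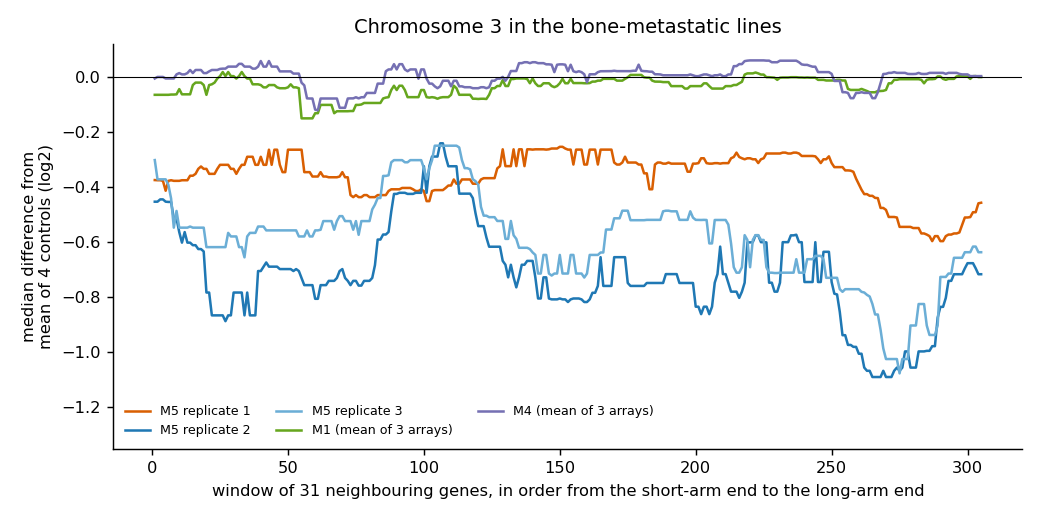
Median difference (log2) from the mean of the 4 controls in 305 windows of 31 neighbouring genes of more than median signal along chromosome 3, for each M5 array and for the means of M1 and M4. All windows of the M5 arrays are below 0, between -0.60 and -0.25 on replicate 1 and down to -1.09 and -1.08 on replicates 2 and 3, whereas M1 and M4 stay between -0.15 and 0.06.

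Called falls of this chromosome included genes of many functions. RFC4, which loads the replication clamp, was at 9.80, 9.48, 9.71 and 9.64 in control and at 8.98, 8.60 and 8.58 in M5 (-0.94 ± 0.12, adjusted p = 0.00244), and MCM2, a subunit of the replicative helicase, differed by -0.55 ± 0.10 (adjusted p = 0.0171). The adhesion molecule ALCAM was at 8.93, 8.88, 9.49 and 9.24 in control and at 8.40, 8.18 and 8.11 in M5 (-0.90 ± 0.12, adjusted p = 0.00404). Smaller falls were seen for ETV5, a transcription factor induced by MAPK signalling (-0.73), XPC, which recognises damaged DNA (-0.67), AMOTL2, an angiomotin of the Hippo pathway (-0.65), and CD47, the surface signal against phagocytosis (-0.45). The only called rise of the chromosome was STXBP5L, a syntaxin-binding protein, from 3.60 ± 0.04 (SD, n = 4) to 4.02 ± 0.13 (SD, n = 3), a dim signal chosen after its value was seen. SUSD5, on the same chromosome, was also above control on all 3 M5 arrays and is described below. When the genes of chromosome 3 were left out of the test, 39 genes elsewhere were called, against 142 when they were in it.

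The 3 M5 arrays did not behave as 1 group. Replicates 2 and 3 correlated with r = 0.993 over all genes, which are not independent replicates, and replicate 1 correlated with them at 0.975 and 0.982. The median absolute difference between replicate 1 and the others was 0.32 and 0.27 log2 units, whereas replicate 1 differed from the 2 control arrays of its set by 0.14 and 0.16. Replicate 1 alone had 28 genes above control (0.234%) and 19 below (0.159%), and a lone array is assumed here to vary like the other groups. Replicates 2 and 3 had 1499 genes above (12.5%) and 1563 below (13.1%). Tested directly, 1060 genes were higher in replicate 1 than in replicates 2 and 3 (8.86%) and 809 were lower (6.76%). Among the 284 genes called in M5, 8 rises and 52 falls were among these.

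The genes higher in replicate 1 were mostly bright and those higher in replicates 2 and 3 mostly dim. Among the 2991 brightest genes by mean signal 404 were higher in replicate 1 and 37 in replicates 2 and 3, and among the 2990 dimmest these counts were 35 and 218. The median difference from control over the dimmest genes was -0.05, 0.13 and 0.11 on replicates 1, 2 and 3, and over the brightest it was 0.02, -0.14 and -0.06.

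**Figure D4:**
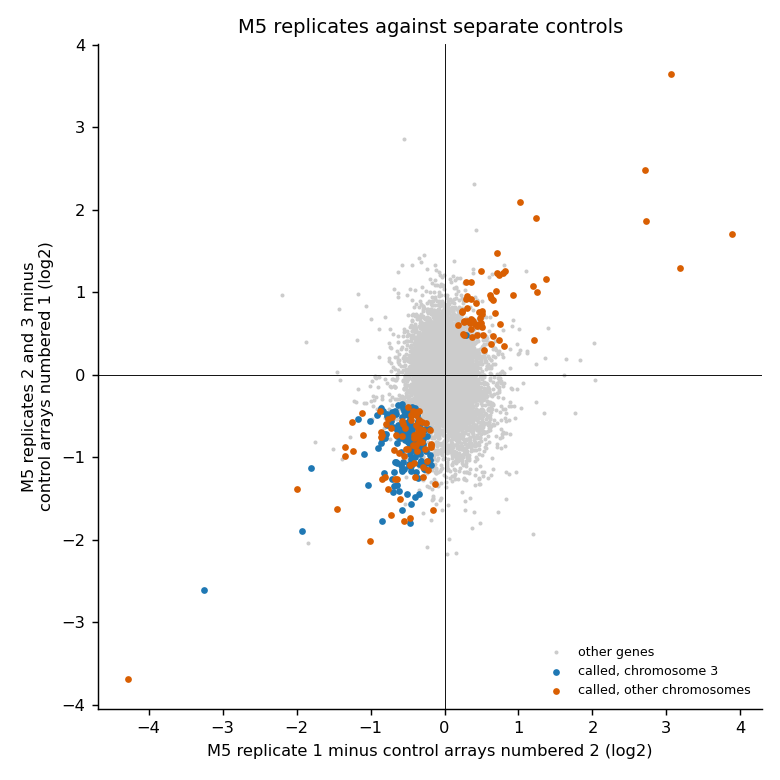
Difference of M5 replicate 1 from the control arrays numbered 2 (x, log2) against that of M5 replicates 2 and 3 from the control arrays numbered 1 (y, log2), 1 point per gene, with called genes coloured by chromosome. The 2 axes share no array, and 11 genes lie past 1 on both axes and 10 past -1 on both.

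Differences that share no array separated what replicate 1 had in common with the other arrays. Replicate 1 minus the control arrays numbered 2 was past 1 log2 unit upward for 32 genes and downward for 36, and replicates 2 and 3 minus the control arrays numbered 1 for 72 and 209. Upward in both were 11 genes: SERPIND1, ALDH1A1, PPEF1, SORBS2, S100A4, TSPAN8, FABP6, GSTA4, CHRNA9, CD36 and DHRS3. Downward in both were 10: FBN2, BCHE, ROBO1, SLITRK5, VAMP8, CLDN1, HEG1, TGM2, the complement protein C3 and the cytokine GDF15. One gene, NEFL, went up in the first and down in the second, and 0 the other way. C3 (-1.85 and -2.04), GDF15 (-1.39 and -1.02) and DHRS3, a retinal reductase (1.10 and 1.26), were not called in M5 and were picked out by these differences alone. Over the 5981 genes of more than median signal the differences correlated with r = 0.07, across genes.

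The genes with the largest differences between replicates fell into 2 patterns. In the first, replicates 2 and 3 lay on one side of all control arrays, and replicate 1 lay within the control range or beyond its other side. CTNNB1, beta-catenin, which lies on chromosome 3, was at 8.78, 9.01, 8.66 and 8.78 in control, at 8.95 in replicate 1 and at 7.10 and 6.35 in replicates 2 and 3 (difference between replicates 2.23, adjusted p = 0.00124). DMXL1, a regulator of the vacuolar proton pump, was at 6.74, 6.45, 6.66 and 6.21 in control, then at 7.05, 4.91 and 5.16 (2.01, adjusted p = 0.000797). PRELID3B, a mitochondrial lipid transfer protein, was at 7.37, 7.24, 6.999 and 7.13 in control, then at 8.02, 5.32 and 6.04 (2.34, adjusted p = 0.000415). For DMXL1, PRELID3B and NEFL, the light neurofilament, replicate 1 lay above all controls and replicates 2 and 3 below them, while for CTNNB1 replicate 1 lay within the control range. NEFL was at 9.70, 9.09, 9.21 and 8.59 in control and at 10.03, 7.21 and 7.84 in M5 (2.51, adjusted p = 0.00175).

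Upward in replicates 2 and 3 were DMWD, a WD-repeat protein, and LIPE, hormone-sensitive lipase. DMWD was at 7.06, 7.06, 7.13 and 6.83 in control, at 6.89 in replicate 1 and at 8.15 and 8.19 in replicates 2 and 3 (difference between replicates -1.29, adjusted p = 0.00235). LIPE was at 4.98, 5.12, 5.29 and 4.98 in control, then at 4.99, 6.50 and 6.18 (-1.36, adjusted p = 0.00252). The splicing-related RNA-binding protein RBPMS (-1.44), the prostaglandin receptor PTGER1 (-1.49) and the factor TCF15 (-1.31) were higher in replicates 2 and 3 as well (adjusted p = 0.00284, 0.0058 and 0.00369). TCF15 was at 6.86, 6.77, 6.82 and 6.58 in control and at 5.92, 7.31 and 7.15 in M5, so that replicate 1 was farther from control than the others. Replicate 1 lay below all controls for PTGER1, TCF15 and REST and within their range for DMWD, LIPE and RBPMS. Second probe sets of PTGER1 (mean signal 5.69), DMWD (5.20) and LIPE (4.08) differed between replicates by -0.29, -0.80 and -0.44, and the 3 other RBPMS probe sets by -0.40 to -0.32. REST, the repressor of neuronal genes, differed by -1.44 (adjusted p = 0.00156), but its second probe set, with a mean signal of 5.29, differed by 1.63, so its direction depends on the probe set.

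In the second pattern all M5 arrays were above control and replicate 1 was highest. CHRNA9, a subunit of nicotinic acetylcholine receptors, was at 3.75, 3.59, 3.72 and 3.75 in control and at 7.56, 5.40 and 5.49 in M5 (2.45 ± 0.41, adjusted p = 0.0118; between replicates 2.12, adjusted p = 0.00124). CD36, a fatty acid receptor, was at 4.11, 4.19, 3.94 and 4.15 in control and at 7.35, 5.40 and 5.24 in M5 (1.90 ± 0.38, adjusted p = 0.0232; between replicates 2.03, adjusted p = 0.000415). All control signals of both genes lay below the lower quartile of their arrays, so these sizes are not exact. With 1 array left out CD36 was called without M5 replicate 1, 2 or 3 (adjusted p = 0.00019 to 0.0392) and not without any 1 of the control arrays (0.069 to 0.0806). Of the other CD36 probe sets, one with a mean signal of 4.05 differed by 1.43 and one of 4.44 differed by 0.06.

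**Figure D5:**
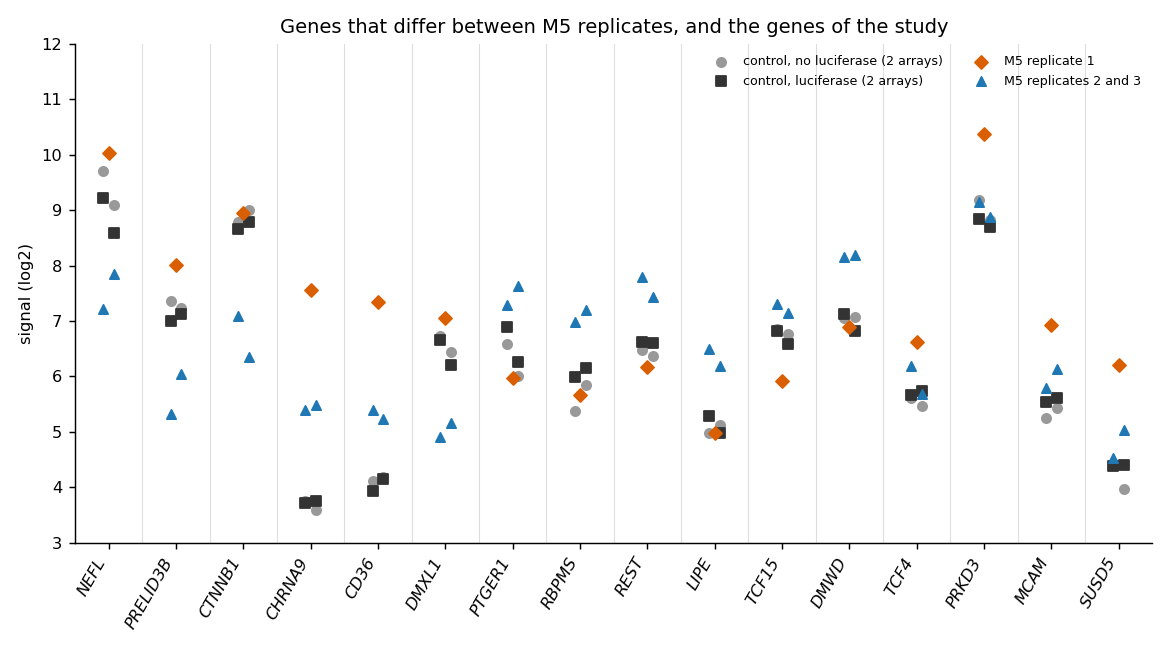
Signal (log2) on each of the 7 arrays for the 12 genes that differed most between M5 replicate 1 and replicates 2 and 3, and for TCF4, PRKD3, MCAM and SUSD5. M5 replicate 1 lies above the controls for the last 4 genes, by 1.00 to 1.91 log2 units, while replicates 2 and 3 lie below replicate 1.

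TCF4, PRKD3, MCAM and SUSD5 are the genes the study itself picked from these arrays, so the direction they show here is no independent evidence. PRKD3, a protein kinase D, was at 9.18, 8.83, 8.85 and 8.70 in control and at 10.37, 9.14 and 8.89 in M5. SUSD5, a sushi domain protein, was at 4.41, 3.98, 4.39 and 4.40 in control, below the lower quartile of each array, and at 6.21, 4.53 and 5.03 in M5. MCAM, a melanoma cell adhesion molecule, was at 5.25, 5.44, 5.53 and 5.60 in control and at 6.92, 5.79 and 6.13 in M5. TCF4, a helix-loop-helix transcription factor, was at 5.61, 5.47, 5.67 and 5.73 in control and at 6.62, 6.19 and 5.69 in M5. Replicate 1 was the highest array for each of the 4, and M5 and control overlapped for TCF4 and PRKD3. A second PRKD3 probe set, with a mean signal of 8.71, differed from control by 0.33 and between replicates by 0.56. TCF4 has 7 probe sets. The one used differed between replicates by 0.69 and the others by 0.03 to 0.26, with differences from control of 0.0017 to 0.66. By limma 0 of the 4 were called over the 3 arrays, with 3 above control at an unadjusted p under 0.05, at differences of 0.54 for TCF4 (adjusted p = 0.187), 0.58 for PRKD3 (0.281), 0.83 for MCAM (0.150) and 0.96 for SUSD5 (0.129). Replicate 1 alone was above control by 1.48 for PRKD3 (adjusted p = 0.0057) and 1.91 for SUSD5 (0.00773). MCAM at 1.47 and TCF4 at 1.00 were not called on that array (0.0917 and 0.108). With the block PRKD3 (1.58, adjusted p = 0.000235), SUSD5 (1.99, 0.00421) and MCAM (1.25, 0.0238) were called and TCF4 was not (0.93, 0.0831). PRKD3 and SUSD5 were higher in replicate 1 than in replicates 2 and 3 by 1.35 and 1.43 (adjusted p = 0.00164 and 0.00613).

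Gene lists were then counted in M5 against control, where the median difference of all genes was 0.03 log2 units. On replicates 1, 2 and 3 it was -0.02, 0.04 and 0.06. The counts stand against 0.527% of all genes called up and 1.85% called down, and those at an unadjusted p under 0.05 against 8.67% and 9.35%. Among osteolysis and bone metastasis factors the list medians on replicates 1, 2 and 3 were -0.09, 0.10 and 0.02. Over the 3 arrays 0 of 35 measured members rose and 2 fell (median 0.06). These were DKK1, a secreted Wnt antagonist, at 8.93, 9.18, 9.55 and 9.32 in control and at 8.57, 8.34 and 8.32 in M5 (-0.84 ± 0.18, adjusted p = 0.0287), and the chemokine CXCL8, at 12.60, 12.76, 12.89 and 12.79 in control and at 12.24, 12.26 and 11.94 in M5 (-0.61 ± 0.13, adjusted p = 0.025). CXCL8 was also the 1 fall among 40 NF-kappaB targets and cytokines (median 0.02, 0 rises). Neither was called with the block (adjusted p = 0.277 and 0.0928). In the Wnt list 0 of 35 rose and 3 fell (median 0.04), namely DKK1 and the Frizzled receptors FZD2 (-0.49) and FZD6 (-0.82). FZD6 fell in replicates 2 and 3 more than in replicate 1, by 0.80 (adjusted p = 0.00301).

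In matrix and protease genes few calls were made. Microfibrils, basement membrane and matrix glycoproteins had 0 rises and 2 falls among 34 (median 0.04), FBN2 and the proteoglycan agrin (AGRN, -0.43, adjusted p = 0.0291; another probe set was at 0.07). The 27 collagens and their modifying enzymes had 0 calls in either direction by limma, with 1 up and 5 down at an unadjusted p under 0.05 (median -0.08). Of 37 extracellular proteases and inhibitors 1 rose and 0 fell (median 0.08), the gelatinase MMP9, at 5.29, 5.08, 5.01 and 5.27 in control and at 5.53, 5.96 and 5.70 in M5 (0.57 ± 0.13, adjusted p = 0.0407; 0.287 with the block).

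Of 40 integrins and adhesion molecules 1 rose, TSPAN8, and 3 fell, ALCAM, CD47 and the collagen receptor subunit ITGA2 (-0.59, adjusted p = 0.0203), with a median of 0.08. Epithelial identity and junctions held 0 rises and 1 fall among 28, CLDN1 (median -0.04). Mesenchymal and EMT genes held 2 rises and 0 falls among 33, S100A4 and PRRX2 (median 0.03). In the TGF-beta and BMP list 1 of 38 rose and 0 fell (median -0.08). This was SMAD3, the receptor-activated effector of TGF-beta, at 5.49, 6.14, 6.50 and 6.37 in control and at 6.96, 7.65 and 7.30 in M5 (1.18 ± 0.26, adjusted p = 0.0374; 0.116 with the block), with its 3 other probe sets at 0.73, 0.88 and 1.02. Receptors and ligands of the EGF and IGF families had 1 rise and 2 falls among 34 (median -0.02), IGFBP7 (0.85, adjusted p = 0.0293; 0.323 with the block), IGFBP4 and IGFBP3 (-0.81, adjusted p = 0.00941). The Notch list had 0 calls by limma among 22 over the 3 arrays, with 6 up and 3 down at an unadjusted p under 0.05 (median 0.18). Its medians on replicates 1, 2 and 3 were 0.06, 0.12 and 0.19.

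The lists of YAP-TEAD targets and p53 targets had the lowest medians, -0.29 over 24 genes and -0.31 over 21. Each held 0 rises and 2 falls: AMOTL2 and IGFBP3 in the first, XPC and TP53I3, an oxidoreductase (-0.75, adjusted p = 0.0415), in the second. With the block XPC (adjusted p = 0.0819) and TP53I3 (0.484) were not called. The shift was larger on replicates 2 and 3. For the p53 targets the list median was -0.01, -0.41 and -0.39 on replicates 1, 2 and 3, with 4 of 21 members higher in replicate 1 than in replicates 2 and 3 and 0 lower, beside 8.86% and 6.76% of all genes and 13.5% and 1.24% of the brightest 2991. For the YAP-TEAD targets the medians were -0.12, -0.28 and -0.29, so replicate 1 was lower too. Over all M5 arrays 0 of the 24 were above control and 11 below at an unadjusted p under 0.05 (limma). This stands beside 8.67% and 9.35% of all genes and 6.59% and 17.1% of the brightest 2991. Replicates 2 and 3 alone were lower than control for 8 of the 24 and higher for 0, by adjusted p. The shares lower and higher there were 13.1% and 12.5% of all genes and 23.2% and 5.32% of the brightest 2991. The mean signal of the YAP-TEAD list was 7.33 to 7.73 on the 7 arrays, and the part of signal level in its shift was not tested. Genes of the cell cycle and DNA replication (53 measured) held 0 rises and 2 falls, RFC4 and MCM2, with list medians of 0.02, -0.25 and -0.07. Replicates 2 and 3 alone were lower than control for 15 of the 53 and higher for 2, beside 13.1% and 12.5% of all genes and 23.2% and 5.32% of the brightest 2991, whose medians on the 3 arrays were 0.02, -0.14 and -0.06. The list is bright, with a mean signal of 8.52 to 8.90 on the 7 arrays, and the part of signal level in its shift was not tested. Replicate 1 alone had 0 members called by limma in the p53 and cell cycle lists, with 1 up and 2 down, and 4 up and 2 down, at an unadjusted p under 0.05 (5.48% and 5.31% of all genes).

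Immediate early genes and MAPK feedback had 0 rises and 4 falls among 34 (median -0.0028), the phosphatase DUSP1 (-0.89, adjusted p = 0.0306), the ephrin receptor EPHA2 (-0.83, 0.0178), ETV5 and the AP-1 subunit JUN (-0.58, 0.0426). JUN was at 7.82, 7.49, 7.48 and 7.43 in control and at 6.70, 6.98 and 7.25 in M5, and with the block JUN, EPHA2 and ETV5 were called down too. Interferon-stimulated genes moved in both directions, with 2 rises and 2 falls among 37 (median 0.05): SAMHD1, a dNTP hydrolase (0.52, adjusted p = 0.0306), and LGALS3BP (0.50, 0.0417) rose, the GTPase GBP1 (-1.05, 0.0243) and PLSCR1, a scramblase on chromosome 3 (-0.70, 0.0306), fell. GBP1 and PLSCR1 were not called with the block (0.0928 and 0.238). NRF2 targets and xenobiotic metabolism likewise had 2 rises, ALDH1A1 and GSTA4, and 2 falls, AKR1C3, an aldo-keto reductase (-0.60, 0.0148), and the fatty aldehyde dehydrogenase ALDH3A2 (-0.46, 0.0293), among 43 (median 0.04). The other ALDH3A2 probe sets, with mean signals of 9.56 and 8.27, differed by -0.20 and -0.15. Of the 28 genes named from the lists alone, 16 kept their call with 1 array left out only when that array was M5 replicate 1, and 4 (ALCAM, AMOTL2, RFC4 and XPC) kept it in all 7 such fits. With the array sets as a block 9 of the 28 were called (ALCAM, IGFBP3, AMOTL2, SAMHD1, RFC4, MCM2, EPHA2, ETV5 and JUN). Without the genes of chromosome 3 in the test 3 of the 20 on other chromosomes were called, and against controls with or without luciferase alone 4 and 6 of the 28. By limma 0 members were called in 5 further lists, given here with the number up and down at an unadjusted p under 0.05. These were MHC and antigen presentation (29 measured, 6 and 1), hypoxia and glycolysis (40 measured, 3 and 7), cholesterol and fatty acid synthesis (26 measured, 2 and 0), the unfolded protein and heat shock response (32 measured, 2 and 4) and lung lineage genes (26 measured, 2 and 1).

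Markers of other cells that bone holds were counted as well. By limma 0 were called among markers of osteoblasts (7 measured, 1 up and 1 down at an unadjusted p under 0.05), haematopoietic cells (15 measured, 5 and 0) and endothelial cells (11 measured, 0 and 0). Osteoclast markers had 1 rise among 6, MMP9, and fibroblast markers 1 among 13, PDPN, whose signals lay below the lower quartile on all 7 arrays (3.90, 3.88, 4.05 and 3.73 in control, 4.18, 4.68 and 4.57 in M5). Neither MMP9 nor PDPN (adjusted p = 0.248) was called with the block. On replicates 2 and 3 alone 7 of the 15 haematopoietic and 5 of the 13 fibroblast markers were above control and 0 below, beside 12.5% and 13.1% of all genes and 13.4% and 1.67% of the dimmest 2990, and on replicate 1 alone 0 of either list were called by limma, with 0 up and 1 down at an unadjusted p under 0.05 among the haematopoietic and 0 and 0 among the fibroblast markers. The list median of the haematopoietic markers was -0.07 on replicate 1, 0.35 on replicate 2 and 0.31 on replicate 3, beside 0.13 and 0.11 for the 2990 dimmest genes on replicates 2 and 3, and 6 of the 15 lay below the lower quartile on all 7 arrays. Their mean signal was 4.20 to 4.36 on control arrays and 4.20 to 4.64 on M5 arrays. The arrays are titled as cell lines, and whether RNA of other cells was present was not tested. If it was, the number of cells of a type and the RNA per cell could not be told apart.

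Set directly against the mean of M1 and M4, 88 genes were higher in M5 (0.736%) and 306 lower (2.56%). SERPIND1, FABP6, PPEF1, GSTA4, PRRX2 and SOCS2 were higher in M5 than in these lines and FBN2, BCHE, ROBO1, SLITRK5, VAMP8, CLDN1, HEG1, TGM2, IGFBP4, FNDC3B and EIF4G1 lower, by amounts given in the closing section. Not separated from M1 and M4 were ALDH1A1 (0.82, adjusted p = 0.258), SORBS2 (0.32, 0.44), S100A4 (0.29, 0.599), TSPAN8 (0.42, 0.251), NES (0.52, 0.0891), PTGES (0.80, 0.0607) and TPBG (-0.46, 0.178). The 4 genes singled out by the study were at -0.15 for TCF4, -0.12 for PRKD3, -0.40 for MCAM and -0.27 for SUSD5 in this comparison, and none was called (adjusted p = 0.429 to 0.818).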

How the data were processed

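Total RNA of human non-small cell lung carcinoma lines was measured on 13 Affymetrix arrays, 3 of M5 and 4 of control. The table that the authors deposited holds log2 signals for 22277 probe sets, and the submitters' processing notes name RMA. Further steps are not given in the sources used. The 62 control probe sets were left out of gene tests, and for each of 11963 genes the probe set of highest mean was used. A separate test of the 3151 probe sets that name no single gene found 5 higher and 15 lower in M5.

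limma (3.58.1, R 4.3.3) fitted 5 group means over all 13 arrays, or 6 with M5 replicate 1 as its own group. Control was the mean of both kinds, and genes were called at an adjusted p (Benjamini-Hochberg) under 0.05. Errors are limma's moderated standard errors, unless SD is given. The code was tested on simulated data. Array sets came from Ward clustering of the control probe sets. Chromosomes came from RefSeq's table (GRCh38.p14), which held 11953 genes. The number of arrays limits the precision.

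Named genes were first the 12 rises and 12 falls whose smaller difference over disjoint control arrays was largest, among called genes without overlap. The higher of their control and M5 means had to be above the median of all genes. A dim gene could thus pass through the group where it was high. PPEF1 and SERPIND1 did so, with means over all arrays of 4.75 and 5.37 against a median of 6.20. Next came the 6 largest differences each way between M5 replicates, with the higher mean above that median. Up to 4 called members of each list and the 4 genes of the study were added. STXBP5L, C3, GDF15 and DHRS3 were named after their values were seen. The comparison, the members and all 29 lists were chosen with earlier results of these data known. Alternatives were other blocks, controls, probe sets, normalizations, thresholds and gene filters, and leaving out each array.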

Additional observations from a re-analysis of the deposited data

Results flagged for a closer look

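Among the 4 control arrays, the highest or lowest array stood apart from the other controls for 3 of 68 named results, with a gap to its neighbour above Dixon's limit, which chance passes in about 1 of 20 groups. HEG1 was lowest on control without luciferase replicate 1 (7.24), JUN was highest on the same array (7.82) and SUSD5 was lowest on control without luciferase replicate 2 (3.98).

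For the 68 named genes the difference between M5 and the mean of M1 and M4 was tested directly in the same fit, and 35 passed. Over all genes 0.736% were higher in M5 and 2.56% lower. Most named genes were chosen by M5 values that this test also uses, so the 35 are no independent evidence. Matrix, adhesion, membrane and secreted proteins lower in M5 were FBN2 (-3.27), BCHE (-2.72), TGM2 (-1.99), VAMP8 (-1.88), ROBO1 (-1.62), SLITRK5 (-1.53), HEG1 (-1.46), FNDC3B (-1.33), CLDN1 (-1.31), ALCAM (-1.06), ITGA2 (-0.47) and CD47 (-0.38). Signalling genes lower in M5 were IGFBP4 (-1.49), FZD6 (-0.97), ETV5 (-0.86), DUSP1 (-0.71), CXCL8 (-0.70) and AMOTL2 (-0.49). Genes of DNA replication and repair, translation, interferon response and metabolism lower in M5 were RFC4 (-0.96), MCM2 (-0.52), XPC (-0.65), TP53I3 (-0.82), EIF4G1 (-0.76), PLSCR1 (-0.73) and ALDH3A2 (-0.42). Of these 25 genes, BCHE, ROBO1, HEG1, FNDC3B, CLDN1, ALCAM, CD47, ETV5, AMOTL2, RFC4, MCM2, XPC, EIF4G1 and PLSCR1 lie on chromosome 3. Higher in M5 than in M1 and M4 were SERPIND1 (2.56), PPEF1 (1.73), CHRNA9 (1.69), FABP6 (1.62), PRRX2 (0.96), IGFBP7 (0.95), GSTA4 (0.77), SOCS2 (0.73), PDPN (0.58) and SAMHD1 (0.47). All values are log2 differences with a limma adjusted p under 0.05. With the array sets as a block, which rests on M5 replicate 1, 23 of the 35 were called and all 35 kept their sign. Replicate 1 was among the arrays by which these genes were chosen, so neither count is independent evidence.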

How the results depend on the processing

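The number of genes called in M5 against control (284) was 49 against controls with luciferase only, 63 against those without it, 29 in a fit of the 7 arrays alone, 39 without genes of chromosome 3, 45 at an adjusted p under 0.01, 52 with an added 2-fold change and 54 to 3062 with 1 array left out. It stayed within 1.5 times of 284 under the other alternatives apart from the replicate block below, among them the array sets as a block (237) or a random block (212). For replicate 1 alone (47 genes) it was 237 with the array sets as a block, 31 among genes above the median signal, 31 and 20 against either control alone, 21 in the 7 arrays, 26 without chromosome 3, 10 at 0.01, 25 with 2-fold and 19 to 38 with 1 array left out. For replicates 2 and 3 (3062) it was 1747 among genes above the median signal, 1847 against controls with luciferase, 1310 at 0.01, 235 with 2-fold and 1043 to 3062 with 1 array left out. Between replicates (1869) it was 1035 above the median signal, 555 at 0.01, 409 with 2-fold and 699 to 1800 with 1 array left out. The median of chromosome 3 (-0.55) was -0.38 with the array sets as a block and -0.62 to -0.48 with 1 array left out. With the probe set of largest interquartile range AGRN turned to 0.0707 and REST to 1.63. Why these counts changed was not tested. The array-set block gives no value for replicates 2 and 3 against control or for the difference between replicates, because their set holds only M5.

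Deviations from the group means of M5 and control arrays of the same number correlated at -0.14 to -0.23. With 2 arrays of each kind of control, the deviations of one mirror those of the other. These values therefore cannot show whether the replicate numbers pair the arrays. With a replicate block 106 genes were called in M5 against control, 17 for replicate 1, 1670 for replicates 2 and 3 and 640 between replicates. The number of arrays and dim control signals limit the sizes of SERPIND1, PPEF1, CHRNA9, CD36 and SUSD5.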
